A study of Mus musculus with 8 samples.

Results

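Leucine, isoleucine and valine, the branched-chain amino acids, are broken down in mitochondria by a shared route that then splits into a branch for each amino acid, and 10 enzymes and enzyme subunits of this route were followed across 3 models of insulin resistance in 3T3-L1 adipocytes. They were taken by symbol as Bcat2, Bckdha, Bckdhb, Dbt, Dld, Ivd, Mccc1, Mccc2, Pcca and Pccb. All 10 were measured, out of 18194 genes on the array, each through the probe set that names this gene alone and has the highest mean over all arrays.

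The samples were 8 Affymetrix mouse expression arrays of 3T3-L1 cells, an established mouse line that is grown as fibroblast-like preadipocytes and differentiated in culture into fat-storing cells. The cells had been made insulin resistant by long exposure to insulin (CI, chronic insulin, 2 arrays), by tumour necrosis factor (TNF, 3 arrays) or by the glucocorticoid dexamethasone (Dex, 3 arrays). Cells of all 3 models also received MnTBAP, a manganese porphyrin antioxidant, in the final 6 hours. The study cites its earlier work, in which MnTBAP restored the insulin response, read as GLUT4 movement to the cell surface, in each model. The model names therefore give the treatment, and insulin response was not part of these array data. Cells left untreated, or lacking the antioxidant, were not analysed here, so each difference is between 2 models that share the antioxidant, and doses and total durations are not given in the sources used here. The labels do not say whether the arrays of a model are separate cultures. The p-values therefore cover the scatter among these arrays alone, and that scatter may be technical.

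Values are given as log2 intensity, and a difference of 1 is a doubling. A gene counted as higher or lower when its adjusted p was under 0.05 in limma, with Benjamini-Hochberg adjustment over all genes, and its log2 difference exceeded 0.5 in size. Intensities of different probe sets are not on 1 scale, so levels were compared between arrays and not between genes. The number of arrays limits the precision.

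In this route Bcat2, the mitochondrial aminotransferase, removes the amino group and leaves a branched-chain keto acid. The branched-chain keto acid dehydrogenase complex then commits the carbon skeleton to breakdown. Its E1 component is built from alpha subunits (Bckdha) and beta subunits (Bckdhb), E2 is the transacylase core (Dbt), and E3 is dihydrolipoamide dehydrogenase (Dld), which the pyruvate and 2-oxoglutarate dehydrogenase complexes also use. Ivd, isovaleryl-CoA dehydrogenase, and methylcrotonyl-CoA carboxylase, made of Mccc1 and Mccc2, act on the leucine branch, and propionyl-CoA carboxylase, made of Pcca and Pccb, takes in the propionyl-CoA from isoleucine and valine. Differentiated adipocytes are known to burn branched-chain amino acids and to use the products for acetyl-CoA and lipid synthesis.

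The labels were checked before the members were compared. Saa3, an acute phase gene induced by inflammatory signals, exceeded its CI level by 5.19 in TNF, and Fkbp5, a glucocorticoid receptor target, exceeded it by 2.96 in Dex. One label field calls the cells preadipocytes and another adipose cells. Adipocyte markers averaged 12.18 to 12.77 over the arrays and preadipocyte and fibroblast markers 10.27 to 11.24. These are different probe sets, so the levels alone do not settle which label holds. The study itself describes these models as 3T3-L1 adipocytes. Correlations between arrays were 0.996 to 0.998 within a model and 0.986 to 0.991 between models. All 10 members had a mean above that of the median gene (7.92), the lowest of them at 9.85.

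The promoter windows of the members were read from RefSeq (GRCm38.p6), each spanning 250 bases before and 50 bases after a start site, and 9 of the 10 members matched with 12 windows. The 5 windows shown belong to Bcat2, Bckdha and Bckdhb, whose transcripts moved in different directions in Dex, and to Mccc1 and Mccc2, which encode the paired subunits of 1 carboxylase. Capitals mark every match, on either strand, to a CCAAT box (CCAAT), a GC box (GGGCGG), a glucocorticoid receptor hexamer (AGAACA), an NF-kB core (GGANTTTCC) or a nuclear receptor hexamer (AGGTCA).
Bcat2, first start, chr7:45569903-45570202, plus strand: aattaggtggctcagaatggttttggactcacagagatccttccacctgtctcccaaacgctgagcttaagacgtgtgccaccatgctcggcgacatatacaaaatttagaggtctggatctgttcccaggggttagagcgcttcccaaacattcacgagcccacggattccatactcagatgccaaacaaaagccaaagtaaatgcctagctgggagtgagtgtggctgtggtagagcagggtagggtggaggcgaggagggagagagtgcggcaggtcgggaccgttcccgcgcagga
Bckdha, chr7:25658712-25659011, minus strand: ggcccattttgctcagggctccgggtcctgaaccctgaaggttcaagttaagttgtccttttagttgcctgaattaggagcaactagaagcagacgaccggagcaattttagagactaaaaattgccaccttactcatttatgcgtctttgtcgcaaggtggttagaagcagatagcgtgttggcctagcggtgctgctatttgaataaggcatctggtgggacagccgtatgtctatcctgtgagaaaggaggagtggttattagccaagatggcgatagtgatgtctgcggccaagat
Bckdhb, first start, chr9:83924887-83925186, plus strand: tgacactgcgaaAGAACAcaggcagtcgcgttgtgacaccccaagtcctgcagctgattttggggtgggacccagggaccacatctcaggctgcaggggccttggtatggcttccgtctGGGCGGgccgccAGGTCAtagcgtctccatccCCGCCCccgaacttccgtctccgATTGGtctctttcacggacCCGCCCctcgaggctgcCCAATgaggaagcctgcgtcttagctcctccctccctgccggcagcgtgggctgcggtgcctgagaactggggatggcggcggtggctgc
Mccc1, chr3:36000629-36000928, minus strand: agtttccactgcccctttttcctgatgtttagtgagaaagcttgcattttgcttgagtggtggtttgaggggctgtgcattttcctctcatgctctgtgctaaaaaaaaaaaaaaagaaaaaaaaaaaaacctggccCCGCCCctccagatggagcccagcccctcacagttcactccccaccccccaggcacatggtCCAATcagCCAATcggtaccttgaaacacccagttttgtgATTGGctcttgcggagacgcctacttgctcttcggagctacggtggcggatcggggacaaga
Mccc2, chr13:100015590-100015889, minus strand: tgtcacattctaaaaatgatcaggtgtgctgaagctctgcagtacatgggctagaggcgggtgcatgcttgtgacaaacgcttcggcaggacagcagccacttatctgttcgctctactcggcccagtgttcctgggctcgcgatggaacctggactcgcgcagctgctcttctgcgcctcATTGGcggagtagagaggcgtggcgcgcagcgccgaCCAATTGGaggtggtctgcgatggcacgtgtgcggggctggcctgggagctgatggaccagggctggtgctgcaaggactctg

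The windows of Bcat2 and Bckdha held none of these 5 letter strings. The window of Bckdhb held 2 CCAAT boxes, 3 GC boxes, 1 glucocorticoid receptor hexamer and 1 nuclear receptor hexamer, while Mccc1 held 3 CCAAT boxes with 1 GC box and Mccc2 held 3 CCAAT boxes. Over all 12 windows, 8 had a CCAAT box and 3 a GC box. The hexamer of the glucocorticoid receptor was in 2 windows, those of Bckdhb and Pccb, the nuclear receptor hexamer was in 3, those of Bckdhb and both starts of Pcca, and the NF-kB core was in 0. Among all 32851 windows in the table, 37.4% held a CCAAT box, 35.7% a GC box, 19.0% a glucocorticoid receptor hexamer, 1.25% an NF-kB core and 16.3% a nuclear receptor hexamer. A match describes letters in the window and a missing match says nothing about the factor.

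With TNF most of the 10 members were lower than with CI. Against CI, 7 of the 10 members were lower and 0 higher: Bcat2, Bckdhb, Dbt, Dld, Mccc1, Mccc2 and Pccb. After quantile normalization 4 passed, since Dld, Mccc2 and Pccb came within the size limit. Over all genes, 5.23% were lower and 3.00% higher in this comparison, and among the 3916 genes with a mean at or above that of the lowest member, 9.35% were lower. The median difference of the members was -0.54, and that of all genes was 0.03. By adjusted p alone, with no limit on the size, 9 members were lower, against 13.3% of all genes. The arrays of TNF lay below both CI arrays without overlap for the same 9 members, all but Bckdha, which held for 24.7% of all genes.

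With dexamethasone the members split. Against CI, Bcat2 and Bckdha were higher, Bckdhb was lower, and the other 7 did not pass the test. Of all genes, 3.33% were higher and 5.67% lower. The members' median was -0.06 and that of all genes 0.02.

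**Figure D1:**
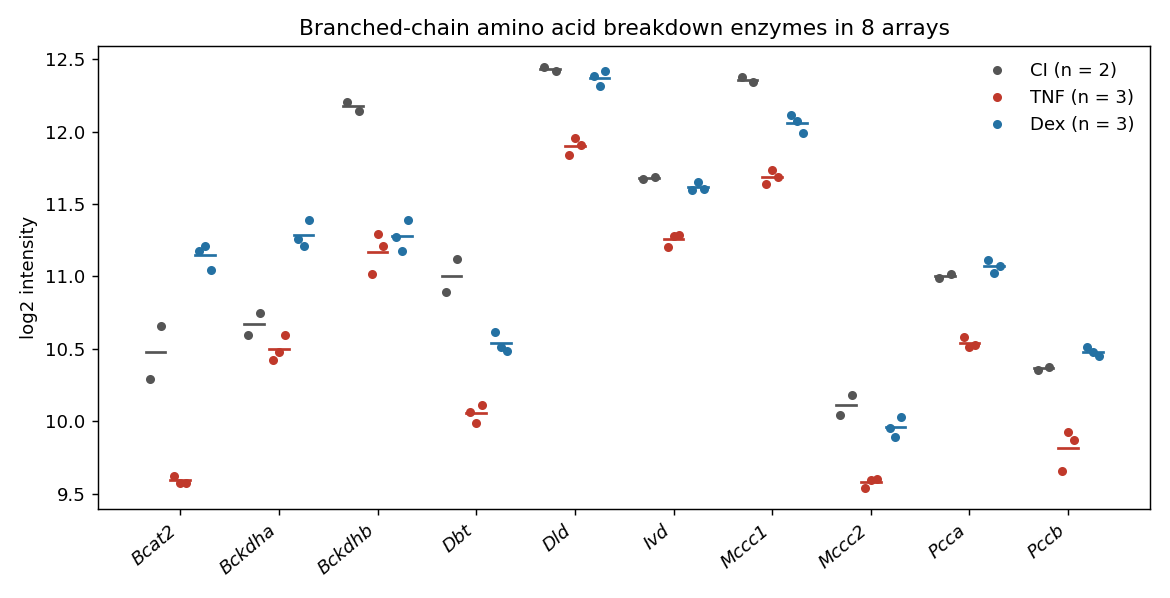
Log2 intensity (vertical axis) of the 10 members in each array, with CI in grey (2 arrays), TNF in red (3 arrays) and Dex in blue (3 arrays); short lines are model means. The TNF arrays sit below all others except for Bckdha, where TNF 3 and CI 1 are both at 10.59, and for Bckdhb, where TNF and Dex overlap, and Bcat2 and Bckdha are highest in Dex.

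Bcat2, at the entry of the route, differed between all 3 models. Its level was 10.29 and 10.66 with CI, 9.62, 9.58 and 9.57 with TNF, and 11.18, 11.21 and 11.04 with Dex. The 3 models did not overlap, with TNF lowest and Dex highest. TNF was lower than CI by 0.88 ± 0.10 (difference -0.88, SE, n = 3 and 2; limma adjusted p = 0.000157), and Dex was higher than CI by 0.67 ± 0.10 (adjusted p = 0.000719). The call for Dex rested on the lower CI array, since without CI replicate 1 the difference was 0.49, under the limit (adjusted p = 0.00961). Between TNF and Dex the difference was -1.55 ± 0.09 (adjusted p = 6.05e-07), a 2.93-fold higher level in Dex and the widest gap among the members.

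The alpha and beta subunits of E1, which assemble into 1 enzyme, did not move together. Bckdha was at 10.59 and 10.74 with CI, 10.42, 10.48 and 10.59 with TNF, and 11.26, 11.21 and 11.39 with Dex. Only Dex stood apart, and TNF overlapped CI. Dex exceeded CI by 0.62 ± 0.09 (adjusted p = 0.00039), and TNF minus CI was -0.17 ± 0.09 with a 95% interval of -0.36 to 0.02 (adjusted p = 0.188). In the direct comparison, TNF was below Dex by 0.79 ± 0.08 (difference -0.79, adjusted p = 2.84e-05).

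Bckdhb, the beta subunit, had its high level in CI. It measured 12.20 and 12.15 with CI, 11.02, 11.29 and 11.21 with TNF, and 11.27, 11.17 and 11.39 with Dex. Both CI arrays were above all 6 others, and TNF and Dex overlapped. The difference was -1.003 ± 0.10 for TNF minus CI (adjusted p = 3.98e-05) and -0.90 ± 0.10 for Dex minus CI (adjusted p = 5.04e-05). TNF minus Dex was -0.11 ± 0.09 with an interval of -0.29 to 0.08 (adjusted p = 0.447).

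Within each array the log2 level of Bckdha minus that of Bckdhb gives a relative measure whose absolute size has no meaning across probe sets, but which can be compared between arrays. It was -1.61 and -1.40 with CI, -0.59, -0.81 and -0.62 with TNF, and -0.01, 0.04 and 0.00 with Dex. The 3 models were fully separate, with Dex arrays within a range narrower than either other model. The measure was 1.52 higher in Dex than in CI, 0.83 higher in TNF than in CI, and 0.68 lower in TNF than in Dex (difference -0.68). Two-sided exact permutation tests gave p = 0.1 for each of the 3 comparisons, and 0.1 after Benjamini-Hochberg adjustment. That is the smallest p that 2 against 3 or 3 against 3 arrays can give.

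Dbt, the E2 core, was graded across the models. It was at 10.89 and 11.12 with CI, 10.06, 9.99 and 10.11 with TNF, and 10.61, 10.51 and 10.49 with Dex, with no overlap. Dbt was lower in TNF than in CI (difference -0.95 ± 0.09, adjusted p = 2.91e-05). Dex lay between the models, at -0.47 ± 0.09 from CI (adjusted p = 0.00248) and with TNF minus Dex at -0.48 ± 0.08 (adjusted p = 0.000983), both within the limit of 0.5. Single arrays decided the side of this limit: Dex minus CI was -0.58 without CI replicate 1 and -0.51 without Dex replicate 1, and TNF minus Dex was -0.51 without TNF replicate 3 and also -0.51 without Dex replicate 3.

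Dld, the E3 component shared with the sister complexes, had levels of 12.45 and 12.42 in CI and 12.38, 12.31 and 12.41 in Dex, against 11.84, 11.95 and 11.91 in TNF. All TNF arrays were lowest, and the Dex arrays lay just below both CI arrays. TNF minus CI was -0.53 ± 0.07 (adjusted p = 0.000417), close to the limit on size, and it was -0.48 after quantile normalization and -0.32 as the median over its probe sets. Dex minus CI was -0.06 ± 0.07 with an interval of -0.22 to 0.10 (adjusted p = 0.603), and TNF minus Dex was -0.47 ± 0.06 (adjusted p = 0.00033).

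**Figure D2:**
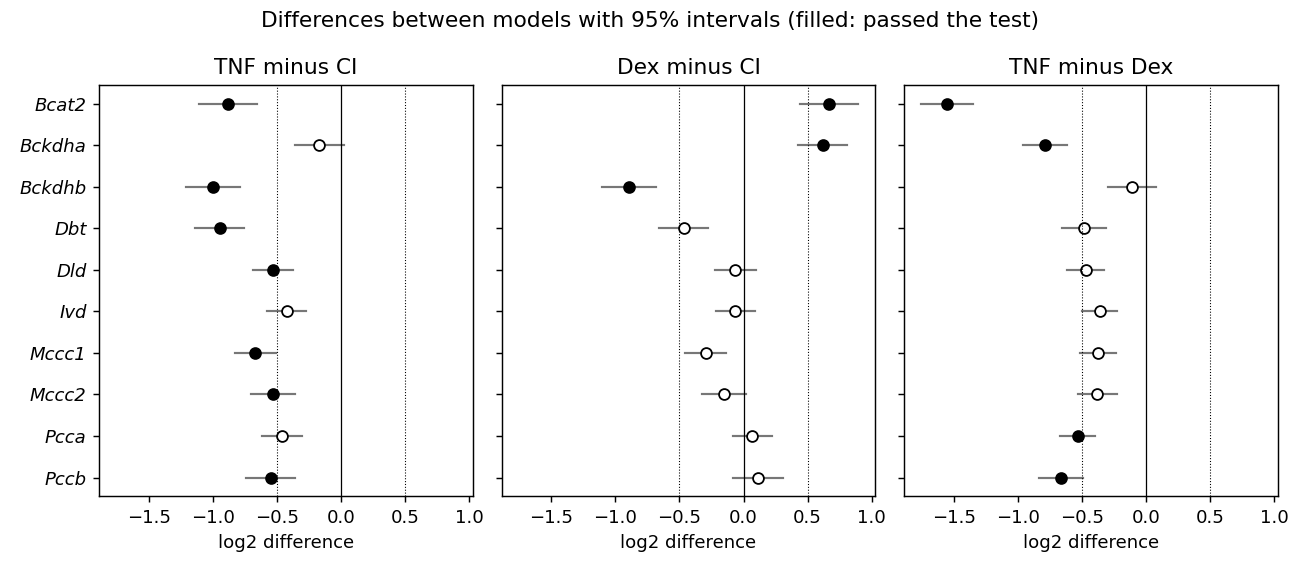
Log2 difference (horizontal axis) of each member in the 3 comparisons, with its 95% interval; filled points passed the test on adjusted p and size, and dotted lines mark the limit of 0.5. All points of TNF minus CI and TNF minus Dex lie below 0, and in Dex minus CI Bcat2 (0.67) and Bckdha (0.62) stand opposite Bckdhb (-0.90).

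On the leucine branch, both carboxylase subunits were lower in TNF than in CI, and Ivd did not pass the test on the probe set used. Ivd, the flavoprotein that oxidises isovaleryl-CoA, was at 11.67 and 11.69 with CI, 11.20, 11.28 and 11.28 with TNF, and 11.60, 11.65 and 11.60 with Dex. TNF lay below the other 2 models without overlap, and TNF minus CI was -0.42 ± 0.07 (adjusted p = 0.0013), short of the size limit. Dex minus CI was -0.06 ± 0.07 (adjusted p = 0.578).

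Mccc1 carries the biotin of methylcrotonyl-CoA carboxylase. It measured 12.37 and 12.34 with CI, 11.64, 11.73 and 11.69 with TNF, and 12.12, 12.08 and 11.99 with Dex, with the 3 models in separate ranges. The difference was -0.67 ± 0.07 for TNF minus CI (adjusted p = 9.30e-05) and -0.29 ± 0.07 for Dex minus CI (adjusted p = 0.0129), the second under the limit on size.

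Mccc2, the non-biotin subunit of the same enzyme, was at 10.04 and 10.18 with CI, 9.54, 9.60 and 9.60 with TNF, and 9.95, 9.89 and 10.03 with Dex. Its TNF arrays were all below the other 5. TNF minus CI was -0.53 ± 0.08 (adjusted p = 0.00062), and it fell short of the limit without CI replicate 2 (-0.46) and after quantile normalization (-0.45). Dex minus CI was -0.15 ± 0.08 with an interval of -0.32 to 0.02 (adjusted p = 0.197).

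The subunits of propionyl-CoA carboxylase had the same order of models. Pcca, the biotin-carrying subunit, was at 10.99 and 11.02 with CI, 10.58, 10.51 and 10.53 with TNF, and 11.12, 11.03 and 11.07 with Dex. Pccb measured 10.36 and 10.38 with CI, 9.65, 9.93 and 9.87 with TNF, and 10.51, 10.48 and 10.45 with Dex. For both genes TNF was lowest and every Dex array lay just above the CI arrays.

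Pccb was lower in TNF than in CI (difference -0.55 ± 0.09, adjusted p = 0.00107), a result that without TNF replicate 1, the lowest array, was -0.47 and within the limit, as it was after quantile normalization (-0.47). The difference of Pcca was -0.46 ± 0.07 (adjusted p = 0.000797), within the limit in the full set of arrays. Against Dex both were lower in TNF, with differences of -0.53 ± 0.06 for Pcca (adjusted p = 0.000105) and -0.66 ± 0.08 for Pccb (adjusted p = 0.000105). The value of Pcca was within the limit after quantile normalization (-0.49) and as the median over its probe sets (-0.28). For Dex minus CI the values were 0.07 ± 0.07 for Pcca, with an interval of -0.08 to 0.22, and 0.11 ± 0.09 for Pccb, with an interval of -0.08 to 0.30.

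In the direct comparison of TNF with Dex, 4 members were lower in TNF (Bcat2, Bckdha, Pcca and Pccb) and 0 were higher, where 3.16% of all genes were lower and 4.14% higher. The members' median was -0.48 against 0.01 for all genes. By adjusted p alone 9 members were lower (10.8% of all genes), and the arrays of 9 did not overlap (17.9% of all genes), Bckdhb being the exception in both counts.

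Of the members, 5 had more than 1 probe set, the 10 members had 16 in all, and the 6 not used above were examined in a fit over 45037 probe sets. In TNF minus CI, 3 of these 6 were lower and 0 higher. The share of lower calls over all probe sets is not given here. Over all genes in the main fit it was 5.23%. For Ivd the probe sets differed in Dex: the second probe set, at a mean of 10.72, gave -0.51 ± 0.08 for Dex minus CI (adjusted p = 0.000889), where the first gave -0.06. In TNF minus CI this second probe set gave -0.84 ± 0.08 (adjusted p = 5.04e-05).

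Mccc1 had a dimmer second probe set with a mean of 7.84, which passed the test in both comparisons with CI, at -0.87 ± 0.10 in TNF and -0.57 ± 0.10 in Dex. The other probe sets of Mccc2, at means of 9.20 and 7.64, gave -0.71 ± 0.16 and -0.46 ± 0.08 for TNF minus CI and passed the test for TNF minus Dex, at -0.70 ± 0.14 and -0.64 ± 0.07. The remaining probe sets of Dld and Pcca, at means of 5.58 and 7.72, were below the median gene and passed no test. Whether Ivd and Mccc1 passed the test in Dex minus CI therefore depended on the probe set. The same held in TNF minus CI for Ivd, Mccc2 and Dld, and in TNF minus Dex for Mccc2 and Pcca.

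**Figure D3:**
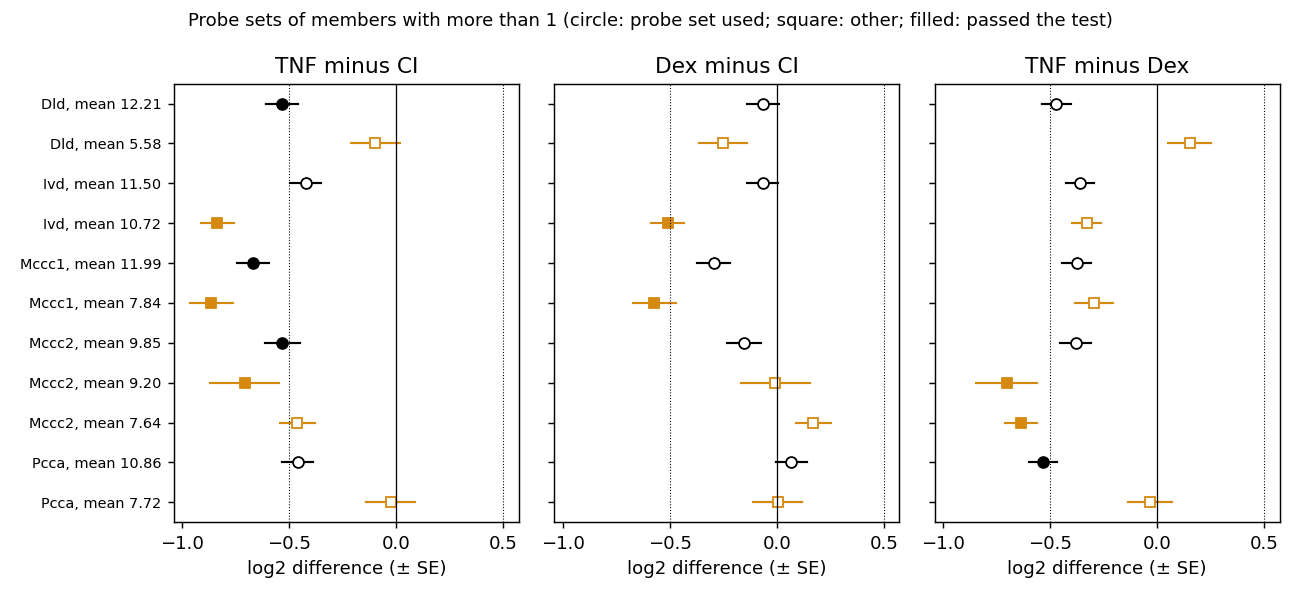
Log2 difference with SE (horizontal axis) for each probe set of the 5 members that have more than 1, with the probe set used as black circles, others as orange squares, filled where the test was passed, and each probe set's mean log2 intensity beside its gene. The second probe set of Ivd lies at -0.51 in Dex minus CI while the first lies at -0.06.

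The rest of the pathway was read from a list of 32 other genes, of which 31 were measured. Against CI, 9 of the 31 were lower in TNF and 1 was higher, with a median of -0.38. In Dex minus CI 2 were higher and 1 lower, with a median of -0.02, and in TNF minus Dex 11 were lower and 1 higher, with a median of -0.39. The percentages for all genes given above for the same comparisons were 5.23% lower and 3.00% higher, 3.33% higher and 5.67% lower, and 3.16% lower and 4.14% higher. The list's count in TNF minus CI ranged from 7 to 13 when single arrays were left out, and was 6 after quantile normalization.

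Among genes of entry and control, Bcat1 went the other way from its mitochondrial counterpart. Bcat1 encodes the cytosolic aminotransferase. It was at 7.48 and 7.54 with CI, 8.19, 8.52 and 8.53 with TNF, and 7.26, 7.13 and 7.64 with Dex, so TNF was above all other arrays, by 0.90 ± 0.14 against CI (adjusted p = 0.00103) and by 1.07 ± 0.13 against Dex (adjusted p = 0.000118). The 2 dimmer probe sets of Bcat1 gave 0.16 ± 0.08 and 0.17 ± 0.08 for TNF minus CI, with adjusted p = 0.23 and adjusted p = 0.183, so the rise was carried by 1 of 3 probe sets. That probe set had a mean of 7.79, below the median gene at 7.92. With genes below the median gene left out, 0 other pathway genes were higher in TNF minus CI.

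Bckdk, the kinase that inactivates the dehydrogenase complex by phosphorylating the E1 alpha subunit, passed no test, at 0.17 ± 0.09 for TNF minus CI, 0.43 ± 0.09 for Dex minus CI (adjusted p = 0.00434, within the limit) and -0.26 ± 0.08 for TNF minus Dex. Ppm1k, the phosphatase that reverses this, was lower in TNF than in Dex (difference -0.54 ± 0.07, adjusted p = 0.000282), and -0.49 without Dex replicate 1 or -0.45 with a beta-actin measure of RNA quality as covariate. Against CI, Ppm1k was at -0.38 ± 0.08 in TNF (adjusted p = 0.00648) and 0.16 ± 0.08 in Dex. Its dimmer probe set gave -1.12 ± 0.22 and -0.33 ± 0.22 for the same comparisons, so the sign of the Dex difference turned with the probe set.

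Slc7a5, a plasma membrane carrier of large neutral amino acids, was at 10.37 and 10.45 with CI, 10.55, 10.84 and 10.86 with TNF, and 11.24, 11.38 and 11.40 with Dex. The models did not overlap. Dex exceeded CI by 0.92 ± 0.10 (adjusted p = 6.35e-05), and TNF minus Dex was -0.59 ± 0.09 (adjusted p = 0.000763), or -0.49 without TNF replicate 1. The other 3 carriers and carrier subunits of this list passed no test.

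Past the members' own step of the leucine branch, 1 of 3 measured genes was lower in TNF than in CI. This was Auh, which hydrates methylglutaconyl-CoA, at -0.53 ± 0.08 (adjusted p = 0.000773), and at -0.50 ± 0.07 for TNF minus Dex (adjusted p = 0.000382). The direction for Auh turned when the median over its probe sets was used, to 0.21 and 0.24. The call was also lost after quantile normalization (-0.45 and -0.47), without TNF replicate 1 (-0.47 and -0.45) and, against Dex, without Dex replicate 3 (-0.49).

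On the isoleucine and valine branches, 5 of 12 genes were lower in TNF than in CI and 0 higher. Hibch, the hydrolase that frees 3-hydroxyisobutyrate from its CoA in valine breakdown, was at 11.54 and 11.49 with CI, 10.74, 10.81 and 10.72 with TNF, and 11.84, 11.71 and 11.72 with Dex. TNF was lowest and Dex highest, with a difference of -0.76 ± 0.07 for TNF minus CI (adjusted p = 4.99e-05) and -1.003 ± 0.07 for TNF minus Dex (adjusted p = 1.52e-06). Ehhadh, a peroxisomal bifunctional enzyme, was at -1.35 ± 0.14 in TNF minus CI (adjusted p = 5.94e-05) and -0.98 ± 0.14 in Dex minus CI (adjusted p = 0.00038). Its signal was low, with a mean of 5.80 against 7.92 for the median gene. It measured 6.43 and 6.93 with CI, 5.31, 5.18 and 5.49 with TNF, and 5.77, 5.59 and 5.73 with Dex. With genes below the median gene left out, 0 other pathway genes were lower in Dex minus CI.

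Hibadh, the next valine enzyme, was lower in TNF than in CI (-0.54 ± 0.07, adjusted p = 0.000269), as was Hadha, the alpha subunit of the trifunctional protein (-0.54 ± 0.11, adjusted p = 0.00533). The call for Hadha was lost without CI replicate 2 (-0.45), without TNF replicate 1 (-0.49), after quantile normalization (-0.46) and with a beta-actin measure of RNA quality as covariate (-0.39). Aldh6a1, methylmalonate semialdehyde dehydrogenase of the valine branch, had the same order of models as Bcat2 and was at 12.32 and 12.29 with CI, 12.09, 12.05 and 12.17 with TNF, and 13.03, 13.02 and 12.96 with Dex. All Dex arrays were above CI, by 0.70 ± 0.07 (adjusted p = 3.84e-05), and TNF minus Dex was -0.90 ± 0.06 (adjusted p = 2.33e-06). In TNF minus Dex, Hsd17b10 (-0.86 ± 0.08, adjusted p = 2.51e-05) and Echs1 (-0.70 ± 0.10, adjusted p = 0.00033) were also lower, among 6 of the 12.

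Beyond propionyl-CoA carboxylase, 3 of 9 genes of the propionyl-CoA and cobalamin steps were lower in TNF than in CI and 0 higher. They were Mmut, the cobalamin-dependent methylmalonyl-CoA mutase (-0.74 ± 0.07, adjusted p = 3.86e-05), Mmachc, which processes cobalamin (-0.70 ± 0.09, adjusted p = 0.000283), and Mcee, methylmalonyl-CoA epimerase (-0.57 ± 0.09, adjusted p = 0.00081). Mcee was within the limit (-0.495) after quantile normalization. By adjusted p alone all 9 were lower. In Dex minus CI 0 of the 9 passed the test, and in TNF minus Dex 2 were lower, Mmachc (-0.61 ± 0.08) and Mmut (-0.51 ± 0.06), of which Mmut was at -0.48 without TNF replicate 1, -0.49 without Dex replicate 1 and -0.47 after quantile normalization.

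**Figure D4:**
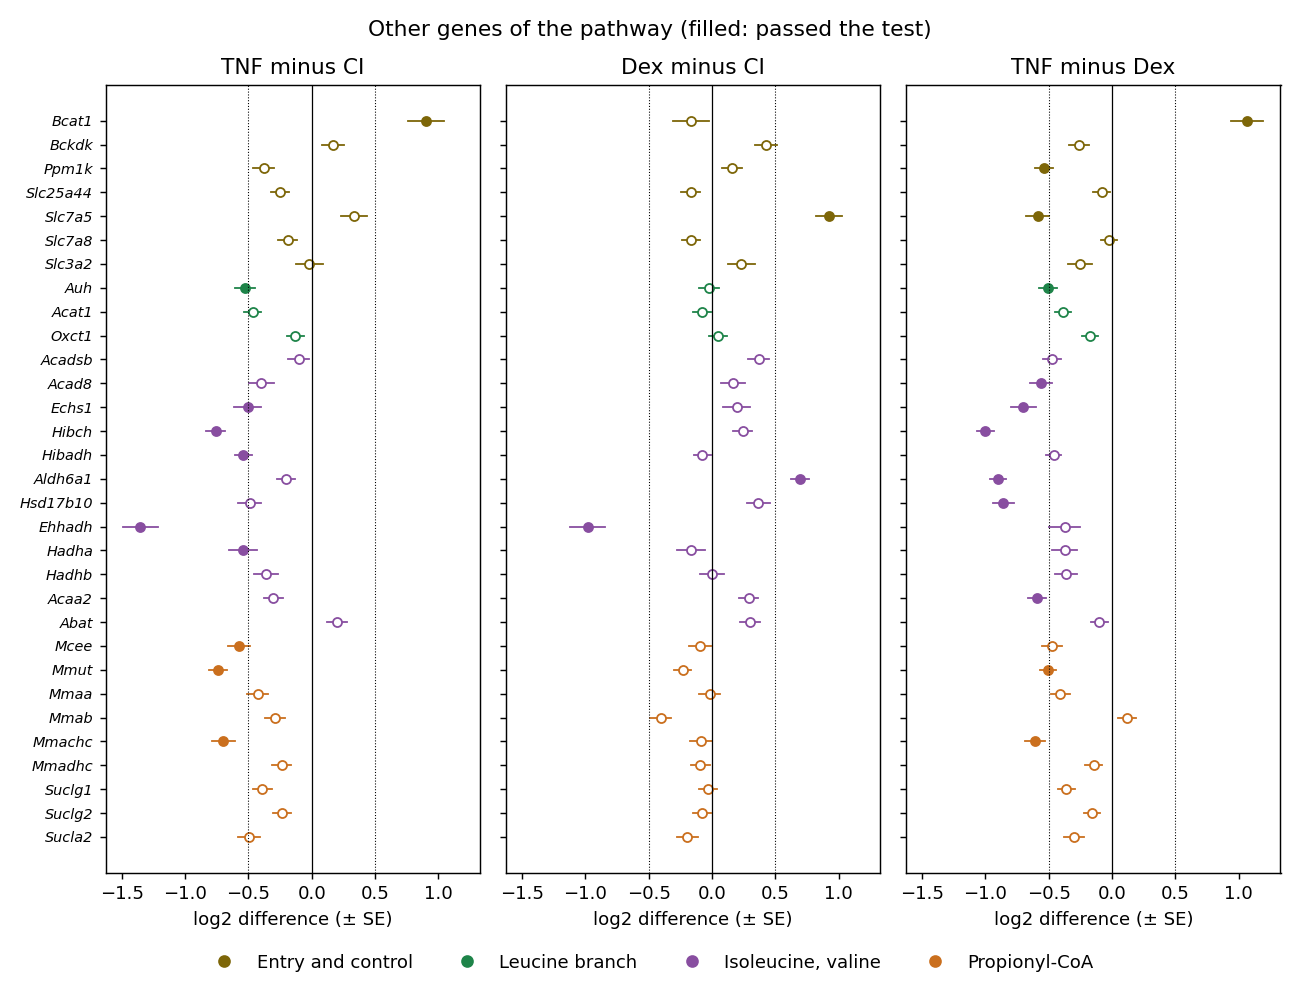
Log2 difference with SE (horizontal axis) of the 31 other pathway genes in the 3 comparisons, coloured by step, filled where the test was passed, with dotted lines at the limit of 0.5. In TNF minus CI 9 filled points lie on the lower side and Bcat1 (0.90), whose mean signal is below the median gene, on the higher. In Dex minus CI Slc7a5 (0.92) and Aldh6a1 (0.70) lie opposite Ehhadh (-0.98), a gene of low signal.

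Dld also serves the pyruvate, 2-oxoglutarate and glycine systems, which work by the same chemistry. Of 8 genes of these systems, 5 were lower in TNF than in CI and 0 higher, with a median of -0.54. Among them were Pdhx, the E3-binding protein of pyruvate dehydrogenase (-1.13 ± 0.11, adjusted p = 3.91e-05), Ogdh, the E1 of 2-oxoglutarate dehydrogenase (-0.85 ± 0.08, adjusted p = 3.77e-05), Dlat (-0.64 ± 0.07, adjusted p = 0.000161) and Pdhb (-0.57 ± 0.11, adjusted p = 0.00283), the last at -0.47 without TNF replicate 1. As the median over its probe sets Ogdh was within the limit, at -0.46 in TNF minus CI and -0.45 in TNF minus Dex. In Dex minus CI 1 of the 8 was lower, Gcsh of the glycine system (-0.51 ± 0.09, adjusted p = 0.00213), which was at -0.48 without CI replicate 2 and after quantile normalization, and -0.44 without Dex replicate 2. In TNF minus Dex 3 were lower, Pdhx (-0.86 ± 0.10), Dlat (-0.74 ± 0.07) and Ogdh (-0.65 ± 0.07).

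Other mitochondrial lists gave like medians in TNF minus CI, at -0.43 for 11 citric acid cycle genes (3 lower) and -0.45 for 12 fatty acid oxidation genes (4 lower), close to the members' own median of -0.54. Of 7 enzymes that use or attach biotin or lipoate, 1 was lower in TNF than in CI, the acetyl-CoA carboxylase gene Acaca (-0.58 ± 0.12, adjusted p = 0.00608, or -0.45 without TNF replicate 1 and -0.49 after quantile normalization), and it was lower in Dex too (-0.82 ± 0.12, adjusted p = 0.000576).

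Among 7 transcription regulators, Klf15, a factor known to activate genes of branched-chain amino acid breakdown in muscle and liver, was highest in CI. It measured 11.40 and 11.46 with CI, 9.88, 10.14 and 9.998 with TNF, and 10.24, 10.14 and 10.27 with Dex, with both CI arrays above all others. The differences were -1.43 ± 0.09 for TNF minus CI (adjusted p = 1.72e-06) and -1.22 ± 0.09 for Dex minus CI (adjusted p = 2.32e-06), and TNF minus Dex was -0.21 ± 0.08. This order put CI apart from the other 2 models. On the probe sets used, Bckdhb was the only member to pass as lower than CI in TNF and in Dex. Bcat2 and Bckdha were higher in Dex than in CI. Whether Klf15 is linked to the members was not tested.

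Pparg, the adipogenic nuclear receptor, was lower than CI in TNF (-0.52 ± 0.08, adjusted p = 0.00134) and in Dex (-0.61 ± 0.08, adjusted p = 0.000357). The TNF value was within the limit when CI replicate 1 (-0.49), TNF replicate 2 (-0.48) or TNF replicate 3 (-0.49) was left out, and after quantile normalization (-0.47). Ppargc1a (-0.68 ± 0.13, adjusted p = 0.00284) and Cebpa (-0.64 ± 0.10, adjusted p = 0.000917) were also lower in TNF than in CI. Ppargc1a was within the limit as the median over its probe sets (-0.31), and Cebpa with the beta-actin covariate (-0.49). Ppargc1b, a coactivator of mitochondrial genes, was higher in Dex (0.58 ± 0.09, adjusted p = 0.000614), and 0.47 without CI replicate 1.

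Markers of cell type moved beside these results. Of 8 adipocyte markers 5 were lower in TNF than in CI, with Adipoq (-0.05 ± 0.07), Fabp4 (0.02 ± 0.07) and Lpl (-0.09 ± 0.07) the exceptions. These exceptions had means of 14.35, 14.41 and 14.22, near the brightest signal of the arrays. Differences may be compressed there, so their small values do not show unchanged transcripts. Of the 5 lower markers, Lep had a low signal (mean 6.03), with CI arrays at 7.17 and 6.26. The call for Pparg was lost in the settings given above. The mean of the 8 markers per array was 12.65 to 12.77 in CI, 12.18 to 12.25 in TNF and 12.45 to 12.49 in Dex. The mean of the 10 members was 11.19 to 11.27, 10.56 to 10.64 and 11.15 to 11.20. Of 7 preadipocyte and fibroblast markers 1 was higher in TNF than in CI and 3 were lower in Dex, with means of 10.91 to 10.92, 10.99 to 11.24 and 10.27 to 10.38. Of 8 macrophage and leukocyte markers 2 were higher in TNF, with means of 7.33 to 7.38, 7.62 to 7.70 and 7.47 to 7.52, while the pan-leukocyte marker Ptprc was low throughout, at 4.602, 4.66 and 4.63. In bulk RNA a smaller share of differentiated cells and less transcript per cell cannot be told apart, and the part of these markers in the members' differences was not tested.

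RNA quality was read from the beta-actin probe sets, as the log2 signal of the 3' end minus that of the 5' end. It was 0.66 and 0.54 with CI, 0.74, 0.71 and 0.83 with TNF, and 0.49, 0.49 and 0.75 with Dex, so all TNF arrays were above both CI arrays. The pyruvate carboxylase probe sets, read in the same way, had means of 1.89 in CI, 2.18 in TNF and 1.77 in Dex. With the beta-actin measure as a covariate all 7 calls of TNF minus CI were kept. Since this measure did not overlap between TNF and CI, the fit cannot separate it from the model. The part of RNA quality in the members' differences was not tested.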

How the data were processed

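Total RNA of 8 samples was hybridised to Affymetrix arrays, and the authors deposited probe set intensities on a linear scale. For this array type the methods describe RMA, which corrects background and normalizes. Whether the deposited intensity values are RMA output with the logarithm removed is not given in the sources used here. No genome build is named for these files, and the number of unused sample columns was 0.

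Log2 was taken with no pseudocount. Of 45101 probe sets, 34958 had 1 gene symbol in GEO's platform annotation. For each of 18194 genes the probe set of highest mean was kept. The 3 models were fitted together with limma 3.58.1 (lmFit, eBayes, two-sided, R 4.3.3), a gene being called at an adjusted p under 0.05 and a log2 difference over 0.5, as in the study's methods. The fit was tested on simulated data. Figures were drawn with Python 3.11.15.

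The 10 members, the gene lists and the tests were chosen with earlier results of these data known. Genes named were the members, Bcat1, Bckdk, Ppm1k, Klf15 and Pparg, up to 4 called genes per list and comparison by size of difference, the 5 genes most like the members' mean profile, and Saa3 and Fkbp5 as label checks. Alternatives covered the scaling, the choice of probe set, the model, the thresholds and leaving out single arrays, and for genes outside the members they were added after the data were seen. The design had assumed log2 values in the files, so the logarithm was an added step. Replicate numbers were not used to pair the samples in the main fit, and whether they do pair them was not settled.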

Additional observations from a re-analysis of the deposited data

Results flagged for a closer look

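For 4 members the difference from CI was not the same in the TNF and Dex models, by a test of the difference between those models (limma, TNF minus Dex, n = 3 and 3). Bcat2, lower in TNF and higher in Dex than in CI, had a difference of -1.55 between the models (adjusted p = 6.05e-07). Bckdha, higher in Dex only by the test, had -0.79 (adjusted p = 2.84e-05). Pcca and Pccb had -0.53 and -0.66 (adjusted p = 0.000105 for each). In all 4 genes every TNF array was below every Dex array, which held for 9 of the 10 members and 17.9% of all genes. The limit on size set these 4 apart on the probe sets used, and 3.16% of all genes passed as lower. Mccc2 also passed on its other probe sets (-0.70 and -0.64). By adjusted p alone 9 members were lower in TNF than in Dex, against 10.8% of all genes. The value for Pcca was -0.49, within the limit on size, after quantile normalization and -0.28 as the median over its probe sets, and both contrasts share the CI arrays. All 4 differences kept their side of the limits when each array was left out in turn.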

How the results depend on the processing

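Of 660 member results recomputed under other settings, 629 kept their direction and their side of the limits, 22 newly passed, 9 no longer passed and 0 turned. Several settings could not move a difference, such as leaving out an array of the model not compared. Probe set rules could not move the 5 members with 1 probe set. The 629 is therefore not a measure of how firm the calls are. Quantile normalization left 4 members called in TNF minus CI (Dld, Mccc2 and Pccb fell within the size limit) and a median of -0.48, with 6 other pathway genes called; centring arrays on their median gave a median of -0.59. These scalings changed the split over all genes, from 545 higher and 951 lower in TNF minus CI to 634 and 724 with quantile normalization and 443 and 1180 with centring, and in TNF minus Dex from 753 and 575 to 806 and 509 and to 699 and 650. With the median over probe sets the members' median was -0.67 in TNF minus CI and -0.41 in TNF minus Dex, Dld was at -0.32, and Auh turned to 0.21 and 0.24 in the same comparisons; the most variable probe set gave -0.77 in TNF minus CI and 5 members called in Dex minus CI. Ppm1k in Dex minus CI turned to -0.085 and -0.33 under these probe set rules. With no limit on size, calls over all genes were 4181 in TNF minus CI, 3926 in Dex minus CI and 3801 in TNF minus Dex, in the same order other pathway calls 24, 11 and 22, and member calls 5 in Dex minus CI and 9 in TNF minus Dex. Leaving out single arrays gave 6 to 7, 3 to 4 and 4 to 5 members called in the 3 comparisons, 7 to 13, 3 to 3 and 8 to 13 other pathway genes, and 1237 to 1605, 1552 to 1795 and 1284 to 1420 genes in all, with member medians of -0.58 to -0.51, -0.07 to -0.06 and -0.50 to -0.45. Deviations of same-numbered arrays correlated between -0.095 and 0.33, and those of differently numbered arrays between -0.38 and 0.28. With so few arrays this does not settle whether the numbers pair them. With the replicate number as a block, 7, 3 and 4 members were called, and 1534, 1730 and 1339 genes in all. Why these settings moved the values was not tested.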

Other observations

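Each member was compared with the mean profile of the other 9 over the 8 arrays, each gene centred on its own mean. Pearson's r was 0.99 for Dld and for Ivd, 0.97 for Pcca, 0.96 for Mccc2, 0.95 for Pccb, 0.90 for Mccc1, 0.86 for Dbt, 0.82 for Bcat2, 0.62 for Bckdha and 0.48 for Bckdhb. These are descriptions, since arrays of 1 model share a treatment, and the E1 subunits were the members least like the rest.

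Outside the members, the 5 genes whose levels followed the members' mean profile most closely over the 8 arrays were Afg3l1, Fam110c and Tars2, each with r = 0.990, and Bscl2 and Dlst, each with r = 0.989. Tars2 is the mitochondrial threonyl-tRNA synthetase, Bscl2 encodes seipin of lipid droplet formation, and Dlst is the E2 of 2-oxoglutarate dehydrogenase. Tars2 averaged 9.57 in CI, 8.89 in TNF and 9.44 in Dex, and Bscl2 averaged 10.98, 10.23 and 10.84. For Dlst the means were 12.17, 11.66 and 12.13, for Fam110c 10.63, 9.79 and 10.48, and for Afg3l1 9.20, 8.82 and 9.14. In each of the 5 genes TNF was lowest and CI highest. The low TNF level follows from the choice, since the profile they were matched to is itself lowest in TNF. That profile was at 0.21 and 0.29 in CI and at 0.22, 0.18 and 0.21 in Dex, so CI above Dex was also favoured by the choice.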
